A study of Bos taurus with 8 samples.

Results

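Genes of the hypoblast and of endoderm were examined on two-color microarrays that set the inner cell mass (ICM) of bovine blastocysts against their trophectoderm (TE). The 7 genes were HNF4A, GATA4, SOX17, FOXA2, APOA1, TTR and LGALS4, and every probe that the platform annotation assigns to one of these symbols was taken, which gave 12 probes of 43794 on the array and 7 genes of 15229 with a symbol. Both RNAs came from blastocysts that had developed in vivo in superovulated Holstein cows and were collected at day 7.5 post insemination. The RNA labelled ICM came from 4 pools and the RNA labelled TE came from 4 pools, and no treatment other than their separation is described. The tissues had been separated by microsurgery and immunosurgery, and their RNA had been amplified before labelling. By the study's methods, the part holding the ICM was also incubated with antiserum and complement, and the cut-off TE part was not. This handling cannot be told apart from the tissue. Each of the 4 pool pairs was hybridized on 1 array with ICM in Cy5 and on 1 array with ICM in Cy3, which gives 8 arrays and 16 channels. Nothing in the sources says that the pools came from different cows, so a p-value reflects only how much these 4 pairs of pools varied.

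The hypoblast, or primitive endoderm, is the epithelium that arises within the ICM beside the epiblast and later lines the yolk sac. In the mouse, FGF signalling and the GATA factors direct cells of the ICM to this fate, SOX17 acts during its maturation, and HNF4A and FOXA2 are active in the visceral endoderm derived from it. That epithelium secretes carriers such as apolipoproteins and transthyretin and lays down a basement membrane. Several of these genes are also expressed in fetal liver and gut, where HNF4A is a central regulator.

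All ratios below are the log2 ratio of the ICM-labelled to the TE-labelled channel, averaged over both dyes of a pool pair, so a negative value means a lower level in the RNA labelled ICM. This direction follows the dye labels and is opposite to that of the study, whose quantitative RT-PCR also found NANOG higher in ICM. The markers of the 2 tissues also went against the labels. NANOG, a pluripotency factor of the epiblast, had a ratio of -3.50 (SE 0.21, limma adjusted p = 0.00317), and of 9 measured epiblast markers 5 were lower and none was higher. Of 13 measured trophoblast markers, 10 were higher and none was lower. Levels are therefore given for the RNA that carried the label ICM and the RNA that carried the label TE, without a claim on which tissue each held. A probe or gene was called higher or lower at a limma adjusted p at or under 0.01, with Benjamini-Hochberg adjustment over all 43794 probes.

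Of the 12 probes, 2 were called lower in the RNA labelled ICM, both of them LGALS4 probes, and none was called higher. On the whole array 1.35% of the probes were called lower and 1.92% were called higher. Among the 7 genes, each represented by its brightest probe, 1 was called lower and none higher, beside 1.91% lower and 3.35% higher of all genes with a symbol. At an unadjusted limma p under 0.05, 6 of the 12 probes differed, beside 9947 of all 43794 probes. With any 1 pool pair left out none of the 12 passed the adjusted p, but without pair 2, 3 or 4 no probe of the whole array passed. When the 8 arrays were fitted one by one with the pool pair as a replicate block, 5 passed, which were HNF4A probes 1 and 2 and the 3 LGALS4 probes, all lower. The same fit called 5320 of all 43794 probes. That fit estimated a correlation of only 0.0356 within a pair, so it counted the dye-swapped arrays of the same RNAs almost as separate samples. With a dye term beside the replicate block the correlation was 0.438, and 4 passed, without HNF4A probe 2, beside 4531 probes of the whole array. The median ratio was -0.21 over the 7 genes and 0.0083 over all genes with a symbol. For 6 probes, which belong to HNF4A, FOXA2 and LGALS4, all 4 pools labelled ICM lay below all 4 pools labelled TE. The same held for 6.88% of all probes. In the plot of ratios by pool pair, the pairs of the other 4 genes lay between -0.62 and 0.20, both of them values of APOA1.

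**Figure D1:**
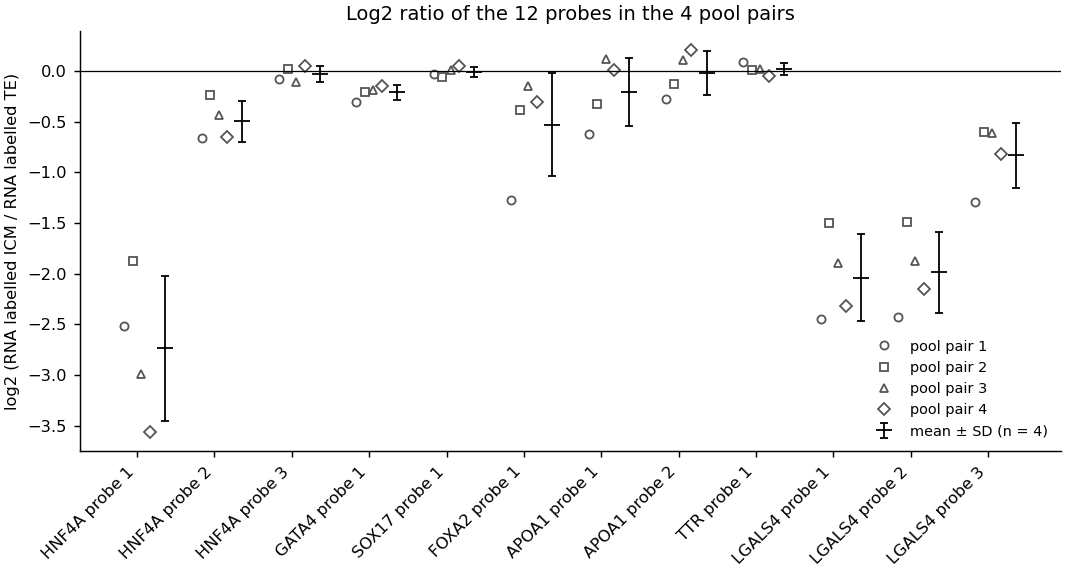
Log2 ratio of RNA labelled ICM to RNA labelled TE (vertical axis) for the 12 probes of the 7 genes (horizontal axis). Open symbols are the 4 pool pairs, each a mean of 2 dye-swapped arrays, and bars are the mean and SD over the 4 pairs. HNF4A probe 1 reached the lowest values, from -3.56 to -1.88, whereas SOX17 and TTR stayed within 0.09 of 0 in every pair.

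Whether a probe detected its transcript was judged on the raw signal. The limit was the mean plus 2 SD of the 153 negative control spots of the same channel. In the RNA labelled ICM, 9 of the 12 probes exceeded the limit in all 8 channels and the other 3 exceeded it in none. In the RNA labelled TE, 9 probes exceeded it in all 8 channels, and a further probe, that of FOXA2, exceeded it in 6. Over the whole array, 57.2% of the probes exceeded the limit in at least 4 of the 8 channels labelled ICM and 59.9% in at least 4 of the 8 channels labelled TE. The probes that did not reach this share in either label were HNF4A probe 3 and the SOX17 probe. The signal of HNF4A probe 1 was 17.3 times the limit in the median channel labelled ICM and 116 times in the median channel labelled TE. The TTR probe passed in all channels but only just, with medians of 1.14 times the limit in the channels labelled ICM and 1.19 times in those labelled TE. The normalization adds an offset to every intensity, so the ratios of such dim probes are drawn toward 0.

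**Figure D2:**
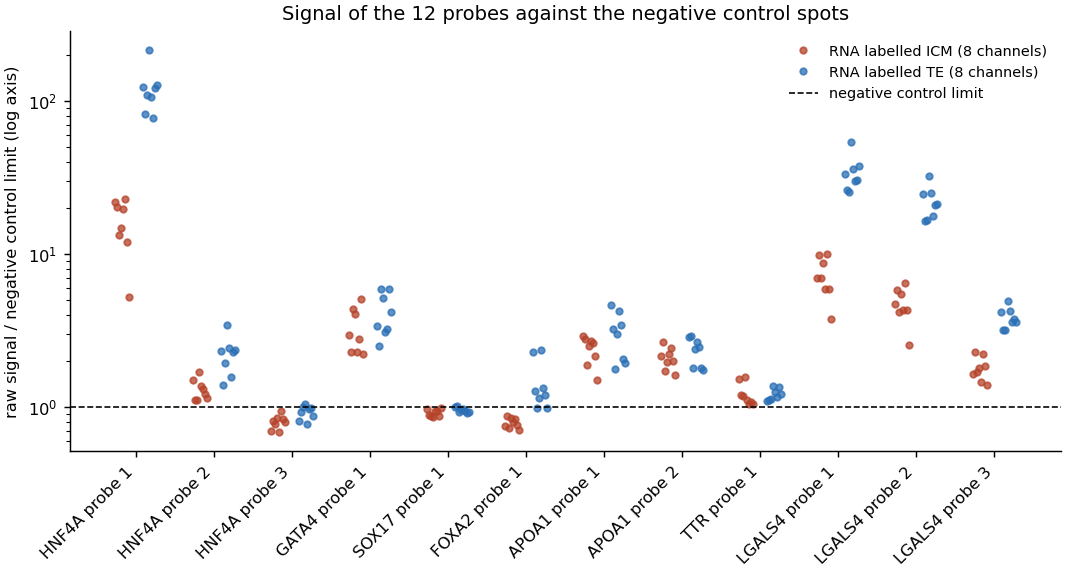
Raw signal of each of the 12 probes divided by the negative control limit of its channel (vertical log axis), for the 8 channels labelled ICM (left, red) and the 8 channels labelled TE (right, blue) of each probe. The dashed line is the limit: HNF4A probe 1 and LGALS4 probes 1 and 2 stood far above it in both labels, and the FOXA2 probe crossed it in 6 channels labelled TE and in none labelled ICM.

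HNF4A, a nuclear receptor that drives liver and visceral endoderm genes, had the largest difference of the 7 genes. Its brightest probe (probe 1, EMBV3_09561) had normalized intensities of 3011, 4424, 2671 and 1589 in pools 1 to 4 labelled ICM, against 17174, 16270.3, 21241 and 18792 in pools 1 to 4 labelled TE. All pools labelled ICM were lower than all pools labelled TE, and the highest of the pools labelled ICM was that of pair 2. The ratios of the 4 pairs were -2.51, -1.88, -2.99 and -3.56, with a mean of -2.74 ± 0.72 (SD, n = 4), which is a level 6.66-fold lower in the RNA labelled ICM. The ratio was negative on 8 of 8 arrays, and it ranked 7 from the bottom among the 43794 ratios. The limma adjusted p was 0.0102 (SE 0.29), so the probe just missed the threshold. With the replicate block it was 4.8e-05, but that fit counted the dye-swapped arrays almost as separate samples. With a dye term beside the block it was 0.000189. The study reported HNF4A as higher in ICM on its arrays, but its quantitative RT-PCR showed no difference between the tissues. In such bulk RNA, fewer cells that express a gene and less of its RNA in each cell cannot be told apart.

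HNF4A probe 1 passed the threshold in 9 of the 16 other ways of processing, with adjusted p-values between 2.7e-05 and 0.0788 and ratios between -3.02 and -2.46. The pools labelled ICM varied more than the pools labelled TE, with SDs of 0.61 and 0.17 on the log2 scale.

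The other probes of HNF4A gave much smaller ratios. Probe 2 (EMBV3_09103) read 281, 275, 301 and 289 in the pools labelled ICM, against 445, 325, 406 and 454 in the pools labelled TE. The groups did not overlap, and the mean ratio was -0.50 ± 0.20 (SD, n = 4; SE 0.08, limma adjusted p = 0.0309, against 0.0045 with the replicate block and 0.0223 with a dye term beside the block). Probe 3 (EMBV3_22309) had a ratio of -0.03 (limma adjusted p = 0.724) and exceeded the negative control limit in none of the 8 channels labelled ICM and in 1 of the 8 channels labelled TE. The signal of probe 3 thus gives no size of a difference. Probe 2 lay close to the limit as well, with a median of 1.26 times the limit in the channels labelled ICM and 2.31 times in those labelled TE. Which transcripts each probe recognises was not tested.

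GATA4, a zinc-finger factor of early endoderm, was measured well above the negative controls in every channel and differed little between the labels. Its probe (EMBV3_37102) read 467, 538, 1002 and 579 in the pools labelled ICM, against 579.6, 621, 1138 and 639.7 in the pools labelled TE. Pool 3 stood above the other pools in both labels, so the groups overlapped, but within each pair the pool labelled ICM was the lower one. The pair ratios were -0.31, -0.21, -0.18 and -0.14, with a mean of -0.21 ± 0.07 (SD, n = 4). This small difference was negative on 7 of 8 arrays and was not called (SE 0.03, limma adjusted p = 0.0288). The spread of the pools within a label was wider than the difference between the labels, with SDs of 0.48 on the log2 scale for ICM and 0.45 for TE. The study described GATA4 transcripts as found only in ICM, and it judged presence against background intensity. Here the GATA4 probe exceeded the negative control limit in all 8 channels of each label.

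FOXA2, a forkhead factor of definitive and visceral endoderm, was detected only in the RNA labelled TE. Its probe (EMBV3_25515) read 185, 225, 228 and 211 in the pools labelled ICM, against 447, 295, 252 and 260.3 in the pools labelled TE. All 4 pools labelled ICM lay below all 4 pools labelled TE, and pair 1 had by far the widest gap. The signal exceeded the negative control limit in none of the 8 channels labelled ICM and in 6 of the 8 channels labelled TE, so the level in the RNA labelled ICM was not well above background and no fold is given. The pair ratios of -1.28, -0.39, -0.14 and -0.30 were all negative, but their spread was large and the probe was not called (mean -0.53 ± 0.51, SD, n = 4; limma adjusted p = 0.232). Without pair 1 the mean was -0.28.

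SOX17, an SRY-box factor of endoderm, was at the level of the negative controls in both labels. Its probe (EMBV3_17762) read 247, 239.8, 242 and 246 in the pools labelled ICM, against 252, 249, 241 and 238 in the pools labelled TE. It exceeded the limit in none of the 8 channels labelled ICM and in 2 of the 8 channels labelled TE, so no fold is given. A difference in SOX17 was not detectable at this signal.

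**Figure D3:**
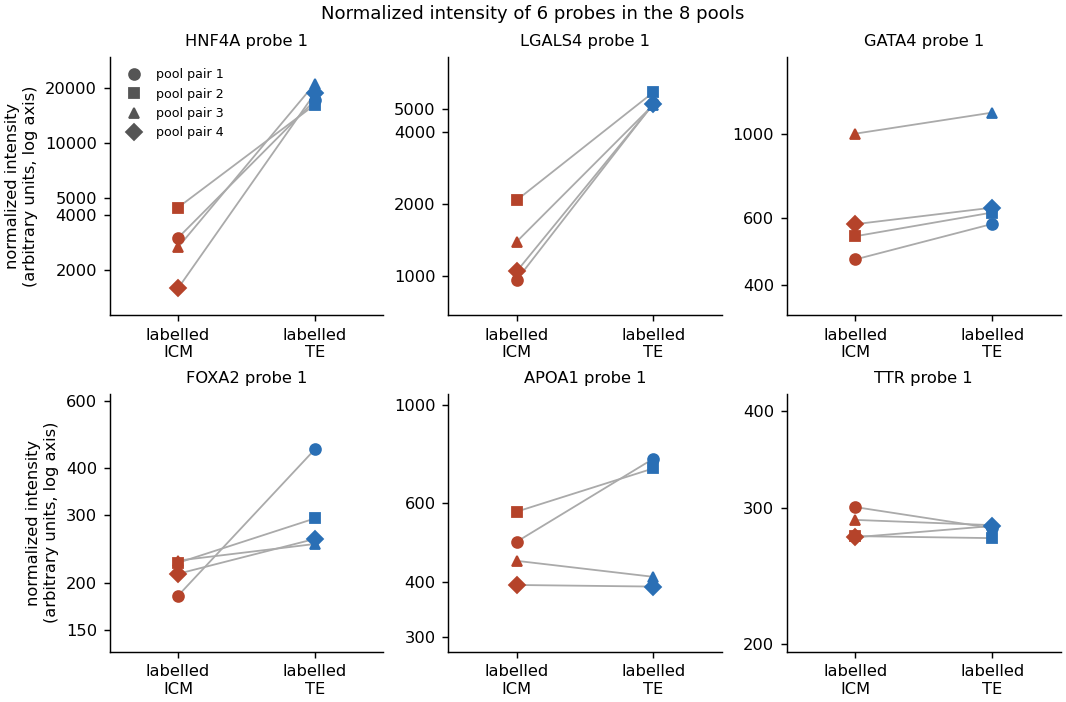
Normalized intensity in arbitrary units (vertical log axis, with its own range in each panel) of 6 probes in the 4 pools labelled ICM (left, red) and the 4 pools labelled TE (right, blue); symbols mark the pool pair and lines join the pools of a pair. The pools separated for HNF4A, LGALS4 and FOXA2, pool pair 3 stood apart in both labels for GATA4, and the pools overlapped for APOA1 and TTR.

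APOA1, the main protein of high-density lipoprotein, was detected in every channel by both of its probes, and its pool pairs moved in different directions. Probe 1 (EMBV3_07752) read 492, 574, 445 and 393 in the pools labelled ICM, against 756, 719, 409.9 and 389.7 in the pools labelled TE. The RNA labelled ICM was the lower one in pairs 1 and 2, with ratios of -0.62 and -0.32, and pairs 3 and 4 were close to equal, with 0.12 and 0.01. The mean ratio of -0.20 ± 0.34 (SD, n = 4) was not called (SE 0.14, limma adjusted p = 0.513). Probe 2 (EMBV3_01993) had pair ratios of -0.27, -0.13, 0.11 and 0.20, with a mean of -0.02 (limma adjusted p = 0.924). The sign of each pair was the same with both probes and with both dyes of probe 1. Across the 8 pools the levels of the 2 probes had a Pearson r of 0.896. This is a description over pools that share arrays within a pair.

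TTR, or transthyretin, carries thyroid hormone and retinol-binding protein and is made by visceral endoderm and liver. Its probe (EMBV3_18966) read 301, 276, 289 and 275 in the pools labelled ICM, against 282, 274, 285 and 284 in the pools labelled TE. The groups overlapped, and the mean ratio was 0.02 ± 0.06 (SD, n = 4; limma adjusted p = 0.803), with a 95% interval over the pairs of -0.07 to 0.11. The signal was close to the negative control limit, where ratios are drawn toward 0, so this interval does not bound the difference in TTR. The sign of the ratio went with the dye: the 4 arrays with ICM in Cy5 had ratios of 0.10 to 0.27 and the 4 arrays with ICM in Cy3 had ratios of -0.20 to -0.06. The dye orientation and anything else that the 4 arrays of an orientation share cannot be told apart here.

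LGALS4 encodes galectin-4, a galactoside-binding lectin of the gut epithelium, and it was the only one of the 7 genes with called probes. Probe 1 (EMBV3_34475) read 965, 2074, 1392 and 1047 in the pools labelled ICM, against 5247, 5850.4, 5189.6 and 5218 in the pools labelled TE. All pools labelled ICM were lower, and the highest of them was again that of pair 2. The pair ratios were -2.44, -1.50, -1.90 and -2.32, with a mean of -2.04 ± 0.43 (SD, n = 4), which is 4.11-fold lower in the RNA labelled ICM (SE 0.17, limma adjusted p = 0.00628).

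Probe 2 of LGALS4 (EMBV3_42459) gave almost the same result. It read 700.3, 1273, 942 and 684 in the pools labelled ICM, against 3772, 3568, 3460.1 and 3029 in the pools labelled TE. Its mean ratio was -1.99 ± 0.40 (SD, n = 4; SE 0.16, limma adjusted p = 0.00574), or 3.96-fold lower. Probe 3 (EMBV3_39752) read 297, 479, 429.8 and 342 in the pools labelled ICM, against 727, 729, 657 and 602 in the pools labelled TE. Its pools did not overlap either, but the ratio of -0.83 ± 0.32 (SD, n = 4) was smaller and was not called (SE 0.13, limma adjusted p = 0.0262). The limma adjusted p of probe 3 was 0.000585 with the replicate block and 0.0024 with a dye term beside the block. All 3 probes were negative on 8 of 8 arrays and had their largest difference in pair 1.

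The size of the LGALS4 difference changed little when 1 pool pair was left out, with ratios of -2.22 to -1.90 for probe 1 and -2.15 to -1.84 for probe 2. Neither probe passed in those fits, with adjusted p-values of 0.0135 to 0.043 for probe 1 and 0.011 to 0.0433 for probe 2. Median centring of the arrays in place of loess gave ratios of -1.97 and -1.92 and adjusted p-values of 0.0562 and 0.0506, and with it 1 probe of the whole array was called.

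**Figure D4:**
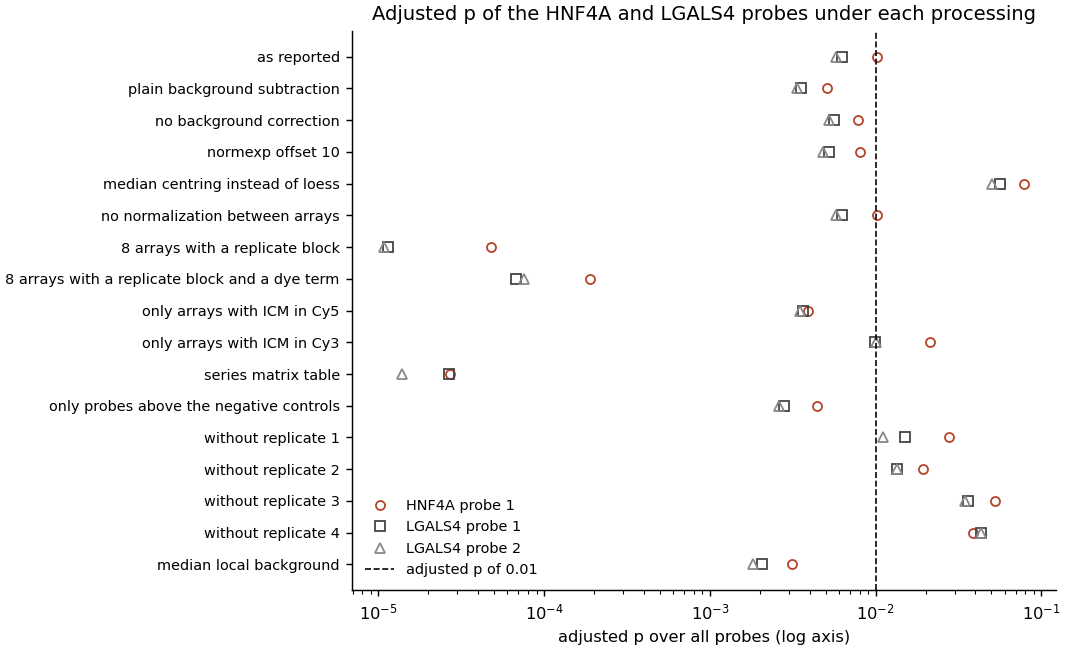
Limma adjusted p over all probes (horizontal log axis) of HNF4A probe 1 and LGALS4 probes 1 and 2 under the reported processing and the 16 others (vertical axis). The dashed line is the threshold of 0.01: HNF4A probe 1 lay just right of it as reported, at 0.0102, and all 3 probes lay right of it in each fit that left out a pool pair.

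Across the 8 pools the brightest probes of HNF4A and LGALS4 had a Pearson r of 0.972, and 0.645 after the mean of each label was removed. HNF4A probe 2 had an r of 0.802 with LGALS4 probe 1, and -0.22 after the mean of each label was removed. On both brightest probes the pool of pair 2 was the highest of the pools labelled ICM, which did not hold on HNF4A probe 2. NANOG likewise had its smallest difference in pair 2, with pair ratios of -4.13, -2.96, -3.24 and -3.67. Of the other epiblast markers only SOX2 did so. POU5F1 had its smallest difference in pair 4, and PRDM14, OTX2, DPPA3, TDGF1, KLF17 and FGF4 had theirs in pair 3. The summed normalized intensity of the 9 epiblast markers was 12092 to 15193 in the pools labelled ICM and 32922 to 50297 in the pools labelled TE. That of the 13 trophoblast markers was 172678 to 188306 in the pools labelled ICM and 88231 to 102947 in the pools labelled TE. These markers moved with the labels beside HNF4A and LGALS4, and their part in the 2 genes' ratios was not tested.

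Among 10383 genes detected well enough to compare, those whose level over the 8 pools was most like that of LGALS4 probe 1 were ZBTB44 (Pearson r = 0.996), NONO (0.994) and HNRNPA1 (0.991). ZBTB44 encodes a zinc-finger protein, and NONO and HNRNPA1 encode RNA-binding proteins. Their ratios were -1.68, -0.69 and -0.61, and all were called lower. The 8 points share arrays within a pair, and a large part of each r comes from the step between the labels.

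The other genes of the same pathways were taken from lists by role. Of 94 measured genes outside the 7, 5 were called higher in the RNA labelled ICM and 1 was called lower, beside 3.35% and 1.91% of all genes with a symbol. With the replicate block 24 of the 94 were called, 11 higher and 13 lower. Of all 43794 probes that fit called 5320, with 2757 higher and 2563 lower. None of the 94, and no probe of the whole array, was called with pair 2, 3 or 4 left out. The median ratio of the 94 genes was -0.01, and 56.4% of them were negative, against 44.5% of all genes. GATA6, LRP2, APOC3, LGALS2 and LGALS13 matched no probe by symbol or synonym and are not analysed here.

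Of 16 other endoderm transcription factors none was called. The one with the smallest p was KLF4, a Krüppel-like factor that is also active in pluripotent cells, with a ratio of -1.41 (SE 0.20, limma adjusted p = 0.0201). Of 23 signals and receptors of hypoblast formation, 1 was called higher and none lower, and their ratios lay between -1.89 and 0.90 with a median of -0.04. The gene called was PDGFA, a ligand of the platelet-derived growth factor receptor, with a ratio of 0.90 (SE 0.09, limma adjusted p = 0.00987) by 1 of its 2 probes. Its receptor PDGFRA, a hypoblast marker in the mouse that was picked here after its value was seen, had a ratio of -1.73 and was not called (SE 0.23, limma adjusted p = 0.0174).

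Of 16 basement membrane and matrix genes, COL4A1, which encodes a chain of type IV collagen, was called lower with a ratio of -0.79 (SE 0.04, limma adjusted p = 0.0028). NID1, the basement membrane linker nidogen-1, was also picked after its value was seen. Its ratio of -2.27 was lower still, but its pairs ranged between -3.29 and -1.57 and it was not called (SE 0.31, limma adjusted p = 0.018). LAMA1, a laminin chain picked in the same way, had a ratio of 1.12 (SE 0.14, limma adjusted p = 0.015).

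Of 10 endocytosis and polarity genes, 2 were called higher in the RNA labelled ICM. DAB2, an endocytic adaptor that visceral endoderm needs in the mouse, had a ratio of 1.37 (SE 0.08, limma adjusted p = 0.0029), with 3 of its 4 probes called. EZR, or ezrin, which links the cell cortex to microvilli, had a ratio of 1.43 (SE 0.07, limma adjusted p = 0.00251), with 2 of 2 probes called. Both ratios are opposite in sign to those of HNF4A and LGALS4.

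Of 22 other genes of apolipoproteins, plasma proteins and lipid handling none was called, and their ratios lay between -0.40 and 0.64. The smallest p was that of APOH, a plasma glycoprotein that binds phospholipids, with a ratio of 0.64 (SE 0.09, limma adjusted p = 0.0191). Only 11 of the 22 exceeded the negative control limit in at least 4 channels labelled ICM and 12 in at least 4 channels labelled TE. ALB, the albumin of adult plasma, exceeded it in none of the 8 channels labelled ICM and in 2 of the 8 labelled TE, so no fold is given.

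Besides LGALS4, 6 galectin genes and LGALS3BP were measured, and 2 of these 7 were called, both higher in the RNA labelled ICM. LGALS3, which encodes galectin-3, had a ratio of 1.46 (SE 0.06, limma adjusted p = 0.00169), with 2 of 4 probes called. LGALS3BP, which encodes a secreted glycoprotein bound by galectin-3, had a ratio of 0.93 (SE 0.06, limma adjusted p = 0.00327). LGALS4 was the only one of the 7 measured galectin genes that was called lower.

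**Figure D5:**
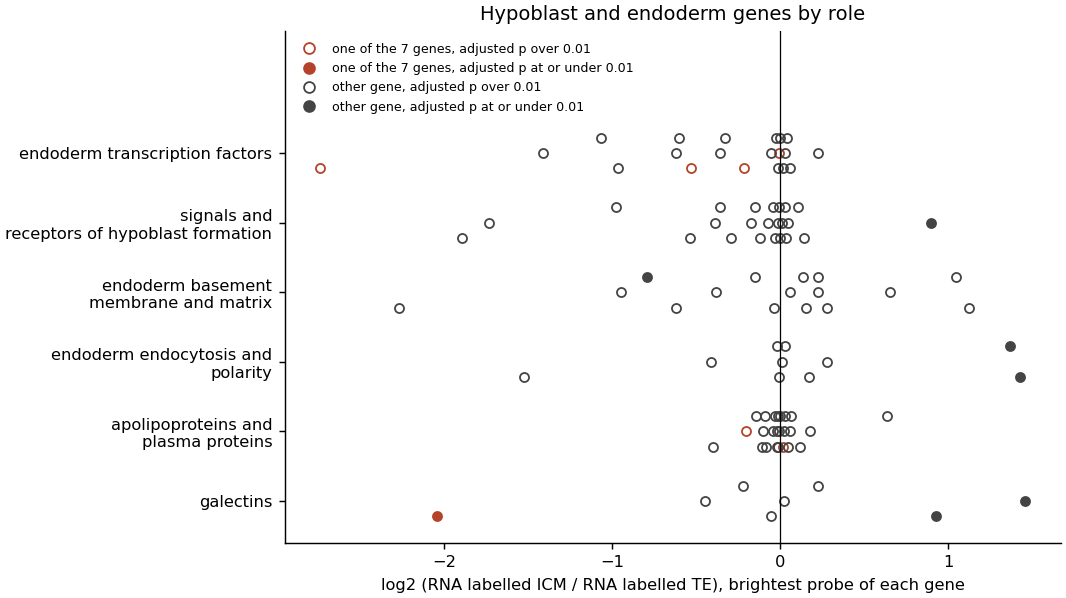
Log2 ratio of RNA labelled ICM to RNA labelled TE (horizontal axis) for the brightest probe of each measured gene, by role (rows). Red points are the 7 genes, grey points are the 94 others, and filled points passed the adjusted p of 0.01; LGALS4 at -2.04 and LGALS3 at 1.46 lay at opposite ends of the galectin row, which also holds LGALS3BP, and the plasma proteins clustered near 0.

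Markers of other tissues that blastocysts flushed from the uterus could carry were read as well. None of 7 measured maternal blood markers, 6 endometrial and oviduct markers and 7 cumulus and granulosa markers was called. Their ratios lay between -0.16 and 0.18 for blood, between -0.01 and 0.45 for endometrium and oviduct, and between -0.23 and 0.49 for cumulus and granulosa. Summed normalized intensities were 1915 to 6260.1 in the pools labelled ICM and 1889 to 5466 in the pools labelled TE for blood. They were 1425 to 1597 in the pools labelled ICM and 1348 to 1388 in the pools labelled TE for endometrium and oviduct. For 6 cumulus and granulosa genes with complete values they were 1644 to 1748 in the pools labelled ICM and 1516 to 1674 in the pools labelled TE. In each label, 4 of the 7 blood markers and 1 of the 6 endometrial and oviduct markers exceeded the negative control limit in at least 4 channels. Of the 7 cumulus and granulosa markers, 3 did so in the RNA labelled ICM and 5 in the RNA labelled TE. The sums thus include probes near the negative controls.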

How the data were processed

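The authors amplified the RNA, labelled it with Cy3 and Cy5, hybridized it to the EmbryoGENE bovine array and extracted the spots with Array-pro. They deposited raw spot intensity and local background intensity, uncorrected, for 45220 spots per array. A second deposited file holds log2 ratios, for which the methods name background subtraction, loess and quantile normalization and the submitters' processing notes name limma. The sources do not state its scale, centring or direction. Its columns correlated with log2 of Cy5 over Cy3 of the scanner intensity (r of 0.73 to 0.856 across probes) and had medians of -0.0257 to 0.0045, so it was used only as an alternative.

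Ignored spots (at most 47 an array) were left out and the 1426 control spots had weight 0 in loess. Normexp background correction (offset 50) was followed by loess within arrays and Aquantile between them, and ratios were turned to log2 of ICM-labelled over TE-labelled RNA. Both arrays of a pair were averaged before lmFit and eBayes of limma 3.58.1 (R 4.3.3) tested the 4 pairs against 0. The steps were tested on simulated data. Over the 16 channels the median signal of the probes was 2.47 to 7.83 times the local background, and 48.2% to 65.6% of the probes exceeded the negative controls. The number of pool pairs limits the precision. Arrays correlated across probes with r of 0.499 to 0.822.

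The replicate numbers in the labels pair the arrays: deviations from the orientation means correlated with r of 0.553 to 0.839 within a number and -0.548 to 0.158 between numbers. The brightest probe, by mean intensity, stands for its gene. All probes of the 7 genes are named. Of each list by role, up to 4 called genes of smallest p in each direction are named, or the 1 of smallest p where none was called. For a gene whose brightest probe was called, the 3 genes most like it over the pools are named. Genes picked after their values were seen are marked as such, and ALB was picked as a textbook example with its value known. The 7 genes and the lists were chosen with earlier results of these data known. Symbols are those of the platform annotation, and missing ones were looked up by synonym in a RefSeq gene table of assembly ARS-UCD2.0. Alternatives varied the background correction, normalization, blocking, dye orientation, threshold, filter and pool pairs.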

Additional observations from a re-analysis of the deposited data

Results flagged for a closer look

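In 36 groups of 4 pools, a pool was set apart where its gap to the nearest other pool took most of the range of the group, and 2 pools were found. Chance alone marks about 5% of such groups. The GATA4 probe had a log2 normalized intensity of 10.15 in pool 3 labelled TE, against 9.18 to 9.32 in the other pools labelled TE. LGALS4 probe 1 had a log2 normalized intensity of 12.51 in pool 2 labelled TE, against 12.34 to 12.36 in the other pools labelled TE. The TTR probe had a mean ratio of 0.143 on the 4 arrays with ICM in Cy5 and of -0.107 on the 4 arrays with ICM in Cy3, with one sign on every array of an orientation, and this difference was not tested.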

How the results depend on the processing

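In total 1431 probes were called, 840 of them higher and 591 of them lower in RNA labelled ICM. With plain background subtraction the call counts were 2350 of all probes and 14 of the 94 other pathway genes, against 6 as reported. With median centring of the arrays in place of loess 1 probe of the array, 0 of the 12 probes and 0 pathway genes were called (smallest adjusted p 0.00235; 7187 probes, 6 of the 12 and 31 pathway genes at an unadjusted limma p under 0.05). The 8 arrays with a replicate block gave 5320 probes, 5 of the 12 and 24 pathway genes, and with a replicate block and a dye term 4531, 4 and 18. With only the arrays with ICM in Cy3, 1078 probes and 1 of the 12 were called (11587 and 8 at an unadjusted limma p under 0.05). The deposited ratio table gave 4029 probes (2038 higher, 1991 lower), 6 of the 12 and 31 pathway genes. Only probes above the negative controls gave 2355 probes and 13 pathway genes. The median local background, an alternative chosen after seeing the data, gave 2898 probes (1626 higher, 1272 lower), 5 of the 12 and 17 pathway genes. An adjusted p at or under 0.05 called 4711 probes, 6 of the 12 and 20 pathway genes. A further fold of at least 2 left 458 probes and 3 pathway genes, and the thresholds of the methods gave 706 and 10. The split into higher and lower was 918 and 904 with only ICM in Cy5 and 761 and 317 with only ICM in Cy3.

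Leaving out 1 pair gave 0 to 828 probes, 0 of the 12 in each case and 0 to 6 pathway genes. Only the fit without pair 1 called any, 828 probes and 6 pathway genes. Without pairs 2, 3 and 4 the smallest adjusted p was 0.0102, 0.014 and 0.0123, with 8352, 8732 and 9312 probes at an unadjusted limma p under 0.05; of the 12, between 6 and 7 were under 0.05 in the 4 fits. All ratios of HNF4A, GATA4, FOXA2 and LGALS4 kept their sign in every alternative, and so did APOA1 probe 1. Some alternatives could not change a ratio: the fits with a replicate block, the filter on the negative controls and the omission of normalization between arrays. The ratio changed sign for SOX17 (0.0039 with median centring, 0.038 with ICM in Cy3, -0.027 to 0.0075 with 1 pair left out), APOA1 probe 2 (0.0611 with median centring, 0.0392 with ICM in Cy3, 0.0617 without pair 1, 0.0131 without pair 2 and -0.0972 without pair 4) and TTR (-0.107 with ICM in Cy3, -0.0056 to 0.0404 with 1 pair left out), none of them called. FOXA2 was called only in the deposited table (-1.19, adjusted p = 0.00794; 0.00794 to 0.389 over its alternatives). The number of the 12 probes above the negative controls was 10, and 9 to 12 with other limits. The causes of these changes were not tested.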
